A study of Homo sapiens with 18 samples.

Results

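The effect of RAD21 silencing at 48 h was set against its effect at 24 h, gene by gene, in U2OS cells whose MycER was left inactive. U2OS is a human osteosarcoma cell line. U2OS-MycER cells carry c-Myc fused to the estrogen receptor, delivered by a retrovirus, and the fusion needs 4-hydroxytamoxifen (OHT) to become active. The contrast is the log2 difference between siRAD21 and siCtrl cells at 48 h minus the same difference at 24 h, and it is called the 48 h minus 24 h difference below. It used 9 of the 18 libraries of the series: siCtrl cells at 24 h (2 libraries), siRAD21 cells at 24 h (2), siCtrl cells at 48 h (3) and siRAD21 cells at 48 h (2), all of which received ethanol in place of OHT at transfection. The other 9 libraries hold the same siRNAs and times with 400 nM OHT. The siRAD21 cells received a single commercial pool of siRNAs against RAD21, and the siCtrl cells an siRNA against Renilla luciferase. Of 23399 genes in the table, 14993 had a mean of at least 1 eRPKM (exonic reads scaled to transcript length and to library depth) over the 18 libraries and were tested.

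RAD21 is the subunit that closes the ring of cohesin, the complex that holds sister chromatids together and extrudes chromatin loops. Cells that prepare to divide load MCM helicases onto replication origins in G1 and fire these origins in S phase with CDC45, GINS and the DNA polymerases. Many genes of these steps are transcribed under E2F factors late in G1, while genes of mitosis are transcribed in G2. The comparison of 2 times asks which changes were already present a day after transfection and which appeared later.

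The libraries of the 24 h groups held 10941845 to 12678599 reads and those of the 48 h groups 9742318 to 10912005 reads, so depth was lower at the later time in both siRNA groups. Replicates correlated at 0.982 to 0.990 (Pearson's r over the log2 values of the genes tested). The reads of the siRAD21 24 h pair differed by no more than sampling noise (chi-square of 0.946 per degree of freedom over 3651 genes with 20 to 400 reads), whereas the other pairs of these 4 groups gave 1.28 to 1.66. The study's methods describe biological replicates, and both libraries were kept. Whether a pair within sampling noise is 2 libraries or 1 library sequenced again cannot be told from the files, and in the latter case the errors and p-values that rest on it are too small. Where levels are given as one set against another, siCtrl libraries come first and siRAD21 libraries second. Main counts are also given with the siRAD21 24 h pair averaged into 1 sample. Of 10 osteoblast lineage markers, 5 were tested and none was called, and SP7, IBSP, COL1A2 and TWIST1 were under 0.5 eRPKM. None of 4 leukocyte and none of 4 endothelial markers reached a mean of 1 eRPKM, and their summed levels were at most 0.735 and 2.51 eRPKM in any library.

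More genes were called lower than higher in the difference, though not in the 48 h effect alone. The 48 h minus 24 h difference was called for 1606 genes, at an adjusted p below 0.05 and a log2 value past 0.5. Of the genes tested, 577 (3.85%) were called higher and 1029 (6.86%) lower. With the siRAD21 24 h pair averaged, 1296 genes were called. The median over all genes tested was -0.009 and the SD 0.420. The effect at 24 h alone was called for 874 higher (5.83%) and 390 lower genes (2.60%), and the effect at 48 h alone for 1883 higher (12.6%) and 1676 lower genes (11.2%). The 24 h and the 48 h effect rest on separate libraries, and across genes they had a Pearson r of 0.642 and a slope of 1.02 for the 48 h on the 24 h effect (14993 genes, which are not independent replicates). Of the 874 genes called higher at 24 h, 660 (75.5%) were also called higher at 48 h, which is 35.1% of the 1883 called at 48 h. Of the 390 genes called lower at 24 h, 314 (80.5%) were called lower at 48 h, 18.7% of the 1676. Genes with a lower difference had a median effect of -0.041 at 24 h and -0.79 at 48 h, and genes with a higher difference had 0.26 and 1.00. Since these medians share libraries with the calls, they are a description.

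**Figure D1:**
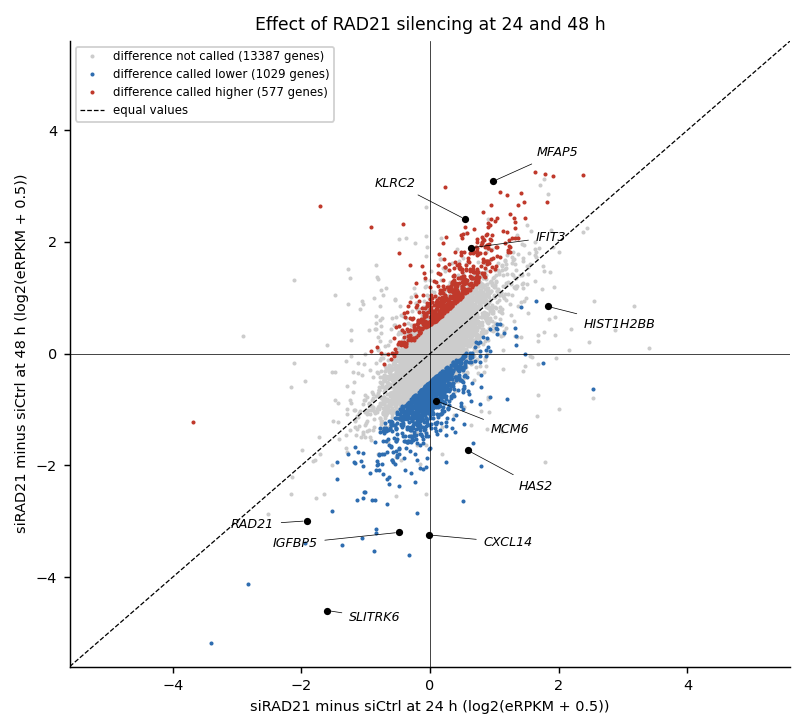
Log2 effect of RAD21 silencing (siRAD21 minus siCtrl) at 24 h on the x axis against 48 h on the y axis, 1 point for each of the 14993 genes tested, on log2(eRPKM + 0.5). Blue and red points are the 1029 genes called lower and the 577 called higher in the 48 h minus 24 h difference. The blue points lie below and the red points above the dashed line of equal values, and CXCL14 and MCM6 sit near 0 on the 24 h axis.

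RAD21 itself went on falling. Its mRNA (chr8:117858173-117887015, hg19) was 72.2 and 69.3 eRPKM in siCtrl cells at 24 h and 93.3, 96.9 and 89.0 at 48 h. In siRAD21 cells it was 18.1 and 18.6 eRPKM at 24 h and 11.2 and 11.3 at 48 h. The groups did not overlap at either time, siRAD21 cells were lower at 48 h than at 24 h, and siCtrl cells were higher. The log2 effect was -1.92 at 24 h and -2.99 at 48 h, and the difference of -1.08 (SE 0.069) had an adjusted p of 5.34e-07 (limma with Benjamini-Hochberg adjustment). Of this, a log2 value of 0.39 was the change with time in siCtrl cells and -0.68 that in siRAD21 cells. RAD21 exons overlap those of UTP23 and the antisense gene RAD21-AS1 over 896 bases, where reads without strand cannot be assigned to 1 gene. Of 15 cohesin genes and regulators, 3 were called lower and none higher. These were RAD21, CDCA5 (sororin, which protects cohesion in S and G2) with -0.70, and ESCO2 (the acetyltransferase that establishes cohesion in S phase) with -0.56. The call of ESCO2 was lost without siRAD21 48 h replicate 1. The core subunits SMC3 and SMC1A had differences of -0.20 and -0.27 and were not called.

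MYC mRNA had 55.2 and 51.7 eRPKM in siCtrl and 44.8 and 44.6 in siRAD21 cells at 24 h. At 48 h it had 54.6, 49.9 and 52.3 in siCtrl and 57.5 and 56.4 in siRAD21 cells. The siRAD21 libraries were thus below the controls at 24 h and above them at 48 h, without overlap at either time. The difference was 0.38 (SE 0.0937, adjusted p = 0.0106), under the size threshold, and the effects of -0.25 and 0.12 were not called either. Reads from the endogenous gene and from the MycER transgene cannot be told apart here. The paper reports lower Myc mRNA by quantitative RT-PCR and lower endogenous Myc protein after RAD21 silencing. It describes a further decrease at later times. In the list of 11 MYC network genes, MYCL (-1.09) and MXD3 (-0.67) were called lower and MXI1 (0.54) higher, with a median of 0.16. The exons of MXD3 share 2074 bases with PRELID1 and RAB24. Of 45 ribosome biogenesis genes, 1 was called higher (RRP12, 0.79) and none lower, and the median was 0.033. Of all genes tested, 3.85% were called higher and 6.86% lower. The 1 higher call in each of these lists is no result about the list.

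Genes of replication licensing and firing went down late. Of 31 such genes tested, 23 were called lower in the difference and none higher, with a median of -0.65 against -0.009 over all genes. In the 24 h effect none of the 31 was called (median -0.080), and in the 48 h effect 21 were called lower (median -0.69). In bulk RNA, fewer cells in S phase and less of these mRNAs per cell cannot be told apart. MCM6, a subunit of the MCM2-7 helicase (chr2:136597196-136634013), is an example. It had 27.4 and 25.5 eRPKM in siCtrl and 28.3 and 28.4 in siRAD21 cells at 24 h. At 48 h it had 26.5, 26.2 and 28.1 in siCtrl and 14.9 and 14.7 in siRAD21 cells. The siRAD21 libraries were slightly above the controls at 24 h, and at 48 h all of them lay far below. The difference was -0.94 (SE 0.061, adjusted p = 5.79e-07). The other helicase subunits followed with -0.79 (MCM2), -0.73 (MCM4), -0.65 (MCM3) and -0.56 (MCM5), all called, the last not without siCtrl 24 h replicate 2. MCM7 had -0.23 (adjusted p = 0.0422), under the size threshold.

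The largest falls in the licensing list were those of GINS2 and GINS1, subunits of the active helicase. GINS2 (chr16:85709804-85723679) had 55.2 and 46.8 eRPKM in siCtrl and 44.1 and 43.5 in siRAD21 cells at 24 h, then 48.5, 52.7 and 49.8 against 19.8 and 21.7 at 48 h. The siRAD21 libraries lay below the controls at both times, by far more at 48 h. The difference was -1.05 for GINS2 (SE 0.113, adjusted p = 3.12e-05) and -1.01 for GINS1 (SE 0.0767, adjusted p = 1.74e-06). MCM10, which helps activate the helicase, had -1.01, and ORC1, the origin recognition subunit made in G1, had -0.95. CDC6 and CDT1, the helicase loaders, and CDC45, TOPBP1, TICRR and MTBP, which act in origin firing, were called lower as well. ORC2 to ORC6, the remaining origin recognition subunits, ranged from -0.41 to 0.030 and were not called.

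**Figure D2:**
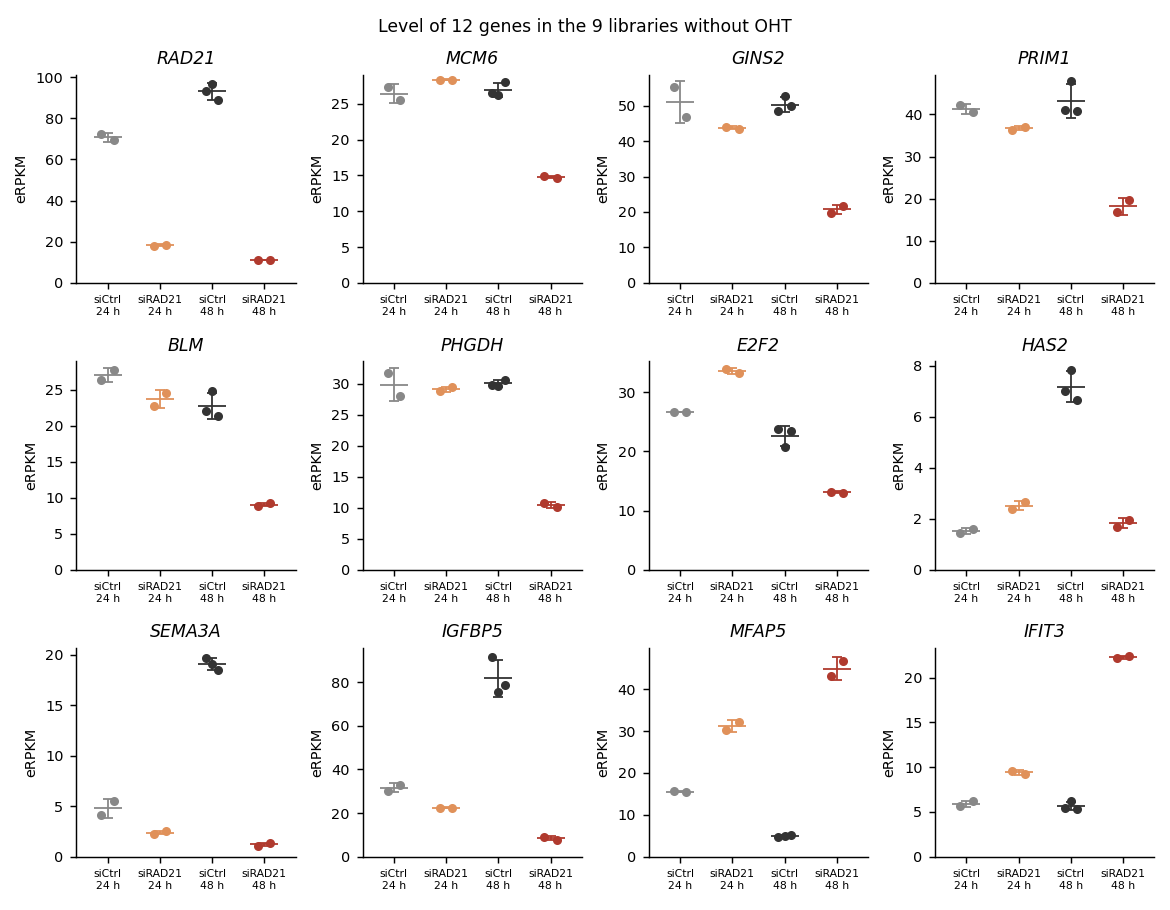
Level in eRPKM of 12 genes in the 9 libraries without OHT, on linear axes from 0. Each point is a library, the horizontal line is the group mean and the bar 1 SD. MCM6, GINS2, PRIM1, BLM and PHGDH are lowest in siRAD21 cells at 48 h, whereas SEMA3A, IGFBP5 and HAS2 are highest in siCtrl cells at 48 h.

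The enzymes of the replication fork gave a like picture. Of 32 genes, 20 were called lower and none higher (median -0.65), with 1 of them called lower at 24 h and 23 at 48 h. CHAF1B and CHAF1A, subunits of the chaperone that places histones behind the fork, had -1.22 and -0.94. PRIM1 and POLA1, the primase and the catalytic subunit of DNA polymerase alpha, had -1.06 and -0.94. PRIM1 (chr12:57124222-57146158, 271 exon bases shared with NACA and HSD17B6) had 42.2 and 40.5 eRPKM in siCtrl and 36.4 and 37.1 in siRAD21 cells at 24 h, and 41.1, 47.9 and 40.8 against 16.8 and 19.6 at 48 h. The siRAD21 libraries were lower at both times and did not overlap the controls. PCNA, the sliding clamp, had -0.33 and FEN1, the flap nuclease, -0.41, and neither was called. The removal of duplicate reads limits a gene to 157.7 to 205.3 eRPKM in these libraries.

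Promoter sequences are shown for the genes of the licensing, fork and histone lists with the largest called differences among those matched to a RefSeq promoter, at most 3 a list and 6 in all. HIST1H2BG had no match and is not shown. They are the 250 bases before the transcription start in RefSeq (GRCh38.p14), 5′ to 3′ on the strand of the gene, with capitals where the E2F site, CHR or CCAAT box letters below match on either strand.
GINS2: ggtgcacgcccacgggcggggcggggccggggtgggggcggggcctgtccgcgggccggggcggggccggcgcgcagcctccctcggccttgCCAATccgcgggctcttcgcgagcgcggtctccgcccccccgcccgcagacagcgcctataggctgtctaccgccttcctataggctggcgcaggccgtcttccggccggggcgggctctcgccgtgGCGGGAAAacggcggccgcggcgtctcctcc
CHAF1B: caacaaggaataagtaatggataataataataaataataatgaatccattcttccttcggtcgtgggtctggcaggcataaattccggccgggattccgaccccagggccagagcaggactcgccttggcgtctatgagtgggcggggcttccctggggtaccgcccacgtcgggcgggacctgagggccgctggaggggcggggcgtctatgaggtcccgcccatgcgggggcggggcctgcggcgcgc
PRIM1: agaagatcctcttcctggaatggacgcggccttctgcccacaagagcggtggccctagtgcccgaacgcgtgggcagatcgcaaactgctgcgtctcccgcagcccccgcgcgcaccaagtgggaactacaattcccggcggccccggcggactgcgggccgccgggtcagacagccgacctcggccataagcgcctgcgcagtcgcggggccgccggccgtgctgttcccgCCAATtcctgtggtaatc
HIST1H1T: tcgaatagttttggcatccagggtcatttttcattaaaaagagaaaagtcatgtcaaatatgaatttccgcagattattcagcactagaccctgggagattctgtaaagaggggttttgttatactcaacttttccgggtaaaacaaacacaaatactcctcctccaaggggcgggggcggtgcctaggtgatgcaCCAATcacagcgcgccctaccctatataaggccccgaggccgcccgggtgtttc
HIST1H3C: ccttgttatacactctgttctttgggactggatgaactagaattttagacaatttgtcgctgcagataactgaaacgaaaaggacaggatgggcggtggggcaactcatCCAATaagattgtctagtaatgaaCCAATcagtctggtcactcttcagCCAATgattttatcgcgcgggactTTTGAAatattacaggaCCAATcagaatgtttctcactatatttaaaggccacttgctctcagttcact
HIST1H2AE: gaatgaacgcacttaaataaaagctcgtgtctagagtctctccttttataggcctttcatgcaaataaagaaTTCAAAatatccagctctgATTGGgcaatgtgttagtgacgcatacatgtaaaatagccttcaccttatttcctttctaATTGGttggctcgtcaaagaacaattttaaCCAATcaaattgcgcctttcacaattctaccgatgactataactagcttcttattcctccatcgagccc

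The windows are at chr16:85688955-85689204, minus strand for GINS2, chr21:36385142-36385391, plus strand for CHAF1B and chr12:56752324-56752573, minus strand for PRIM1. Those of the histone genes are at chr6:26108136-26108385, minus strand for HIST1H1T, chr6:26045134-26045383, plus strand for HIST1H3C and chr6:26216671-26216920, plus strand for HIST1H2AE. The letters searched were TTTGGCGC, TTTCCCGC, TTTGCCGC and TTTCGCGC for the E2F site, TTTGAA and TTCGAA for the CHR (an element of many G2 and mitotic promoters) and CCAAT for the CCAAT box, and no 2 matches overlapped in these windows. GINS2 holds 1 E2F site, read on the strand opposite the gene and starting 31 bases before the start, and 1 CCAAT box, and PRIM1 holds 1 CCAAT box. CHAF1B holds none of these letters in this window. HIST1H3C holds 4 CCAAT boxes and HIST1H2AE 3, each with 1 CHR. In windows from 250 bases before to 50 after the start, an E2F site was found in 46.2% of 26 licensing promoters and 35.7% of 28 fork promoters, against 3.3% of all 27305 promoters. It was found in 17.2% of 29 recombination, 25.6% of 39 histone and 7.8% of 51 mitosis promoters. An E2F site was found in none of 23 promoters of the ATF4 and unfolded protein response list. A CHR was found in 70.6% of the mitosis and 38.5% of the histone promoters and in 16.6% of all promoters. Its shares were 7.7% in licensing, 3.6% in fork, 10.3% in recombination and 8.7% in ATF4 and unfolded protein response promoters. A CCAAT box was found in 35.7% of all promoters, so a single box is common. Its shares were 61.5% in licensing, 53.6% in fork, 41.4% in recombination and 70.6% in mitosis promoters. They were 82.1% in histone and 65.2% in ATF4 and unfolded protein response promoters. The table of all promoters includes genes that were not tested here. Such matches are descriptions of letters, not of bound factors.

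Repair by homologous recombination and the Fanconi pathway, which act on broken or stalled forks, moved with these lists. Of 32 genes, 20 were called lower and 1 higher, with a median of -0.62. At 24 h 1 gene was called higher and none lower, where 5.83% and 2.60% of all genes were. At 48 h 2 were called higher and 22 lower, where 12.6% and 11.2% of all genes were. BLM, a helicase that untangles recombination intermediates (chr15:91260577-91359396), had 26.4 and 27.7 eRPKM in siCtrl and 22.8 and 24.6 in siRAD21 cells at 24 h. At 48 h it had 22, 24.8 and 21.4 in siCtrl and 8.87 and 9.22 in siRAD21 cells, below every control. Its difference was -1.09 (SE 0.0871, adjusted p = 2.51e-06). EXO1, a nuclease that resects DNA ends, had -1.05 and BRCA2, a mediator of recombination, -0.87. RAD50, a subunit of the complex that binds DNA ends, was the exception. It had 8.40 to 8.72 eRPKM in all 4 libraries at 24 h and 8.31 to 8.66 in siCtrl cells at 48 h, and 14.1 and 12.6 in siRAD21 cells at 48 h, for a difference of 0.59.

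Among 25 genes of E2F, RB and the G1/S cyclins, 11 were called lower and none higher (median -0.33), and 7 were called lower without siCtrl 24 h replicate 2. E2F2, an activator E2F, was 26.7 eRPKM in both siCtrl and 34 and 33.2 in both siRAD21 libraries at 24 h. At 48 h it was 23.8, 20.7 and 23.4 in siCtrl and 13.2 and 13.0 in siRAD21 cells. The siRAD21 libraries were thus above the controls at 24 h and below them at 48 h, without overlap, and the difference was -1.09 (SE 0.0953, adjusted p = 4.79e-06). E2F1, another activator, had -1.02 and CCNE2, a cyclin of S phase entry, -1.27. The exons of CCNE2 share 1629 bases with INTS8, and the kit keeps no strand, so reads there cannot be assigned to 1 gene. SKP2, which targets the inhibitor p27 for degradation, was already lower at 24 h (-0.79) and its effect reached -1.79 at 48 h. RB1, E2F3, E2F4 and the D cyclin CCND1 had differences between -0.084 and 0.12 and were not called. Of 6 CDK inhibitors, CDKN2B, CDKN2D and CDKN2C were called lower (-0.83, -0.75 and -0.58), the first 2 not in every leave-one-out fit, and CDKN1A (p21) had 0.20 and was not called. Without siCtrl 24 h replicate 2, 1 of the 6 was called.

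Of 61 mitosis genes, 17 were called lower and none higher, and all 61 had a difference below 0 (median -0.37). CENPE, a kinetochore motor, had 36.8 and 37.9 eRPKM in siCtrl and 32.9 and 33.6 in siRAD21 cells at 24 h, and 25.9, 26.0 and 25.1 against 12.7 and 12 at 48 h. It fell with time in both cell groups, by -0.53 in siCtrl and -1.39 in siRAD21 cells on the log2 scale, and the difference was -0.86. TTK, CENPM and CENPI, a checkpoint kinase and 2 centromere proteins, had -0.85, -0.81 and -0.79. CCNB1, the mitotic cyclin, had -0.19, CDC20, its degradation factor, -0.26 and PLK1, a mitotic kinase, -0.22, none of which was called. Of 16 genes of deoxynucleotide synthesis, 3 were called lower (median -0.28), among them RRM1 (-0.52) and TK1 (-0.51), which make deoxynucleotides. The calls of RRM1 and TK1 were close to the size threshold and were lost in 3 and 2 of the leave-one-out fits. The list had 1 call without siCtrl 24 h replicate 2 or siRAD21 48 h replicate 1, and 5 without siCtrl 24 h replicate 1 or siRAD21 48 h replicate 2.

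Replication-dependent histone genes encode the histones that package new DNA. Of 47, 10 were called lower in the difference and none higher, and 46 had a value below 0 (median -0.34). After undoing the removal of duplicate reads 22 were called lower (median -0.53), and 7 with the siRAD21 24 h pair averaged. The count was 6 without siCtrl 24 h replicate 2 or siRAD21 24 h replicate 1, and 15 without siCtrl 24 h replicate 1. HIST1H2BG had 71.5 and 67.5 eRPKM in siCtrl and 65.0 and 62.0 in siRAD21 cells at 24 h, and 39.7, 48.9 and 40.6 against 16.3 and 14.1 at 48 h. It was lower at 48 h than at 24 h in both cell groups and lowest in siRAD21 cells, with a difference of -1.34 (SE 0.128, adjusted p = 1e-05). HIST1H2AE had -1.13. A few poorly expressed histone genes had another course. HIST1H2BB had 5.94 and 4.39 eRPKM in siCtrl and 20.4 and 18.6 in siRAD21 cells at 24 h, and 3.33, 2.55 and 2.15 against 4.47 and 5.91 at 48 h. Its effect was 1.83 at 24 h and 0.85 at 48 h, and the difference of -0.98 was not called in 3 of the leave-one-out fits. HIST1H1T and HIST1H3C, with 8 to 54 and 3 to 26 reads a library, had effects of 1.75 and 1.47 at 24 h and of -0.17 and 0.00 at 48 h. Near-identical histone copies may share reads.

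The ATF4 response, which includes enzymes of amino acid synthesis, lets cells adapt to a shortage of amino acids. The list of 27 genes also covers the unfolded protein response and is called the ATF4 list below. In it 11 were called lower in the difference, 1 higher and 15 neither (median -0.35). At 24 h 2 were called higher and none lower, where 5.83% and 2.60% of all genes were. At 48 h 3 were called higher and 9 lower (median -0.25), where 12.6% and 11.2% of all genes were. The higher calls at both times are near the share of all genes and are no result about the list. PHGDH, the first enzyme of serine synthesis (chr1:120191034-120286841), had 31.7 and 28 eRPKM in siCtrl and 28.8 and 29.4 in siRAD21 cells at 24 h. The levels at 48 h were 29.8, 29.7 and 30.6 in siCtrl and 10.8 and 10.1 in siRAD21 cells. The groups overlapped at 24 h and were far apart at 48 h, and the difference was -1.44 (SE 0.0876, adjusted p = 4.19e-07). PSAT1, the next enzyme of the pathway, had -1.01, and PSPH, its last, -0.62. ASNS, asparagine synthetase (chr7:97480989-97501854), had 36.9 and 35.8 eRPKM against 44.3 and 42.1 at 24 h, and 44.2, 46.0 and 43.3 against 25.2 and 27.2 at 48 h. It was above the controls early and below them late, with a difference of -0.999 (SE 0.0678, adjusted p = 7.3e-07). CHAC1, which degrades glutathione, had -1.53, and the cystine transporter SLC7A11 -0.93. ATF4 itself had -0.066 and its partner DDIT3 0.21, and neither was called. PPP1R15A, which restarts translation after stress, was the member called higher (0.54), though not in 6 of the leave-one-out fits.

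Targets of p53 had the highest median of the 23 lists. Of 29 tested, 6 were called higher and none lower, and 28 had a value above 0 (median 0.35). At 24 h 8 were called higher and at 48 h 16, with medians of 0.31 and 0.58. GDF15, a secreted stress factor, had 6.55 and 4.80 eRPKM in siCtrl and 10.8 and 10.2 in siRAD21 cells at 24 h, and 6.59, 6.74 and 5.56 against 25.3 and 21.4 at 48 h. The siRAD21 libraries were above every control at both times, and the difference was 0.96 (SE 0.229, adjusted p = 0.00828). ZMAT3, an RNA-binding growth inhibitor, had 0.79, GADD45A, a stress sensor, 0.66 and MDM2, the ligase that degrades p53, 0.63. MDM2 went from 44 and 45.5 eRPKM in siCtrl against 35.3 and 35.7 in siRAD21 cells at 24 h to 50 to 50.7 against 60.8 and 63.5 at 48 h. Its siRAD21 libraries were below the controls at 24 h and above them at 48 h.

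All 10 of the largest falls that met the naming rule were called higher with time in siCtrl cells, and none in siRAD21 cells. The difference subtracts the change with time in siCtrl cells, so ranking by it favours such genes. IGFBP5, a binding protein of insulin-like growth factors (chr2:217536828-217560272), had 30.1 and 33.0 eRPKM in siCtrl and 22.3 and 22.5 in siRAD21 cells at 24 h. The levels at 48 h were 91.5, 75.6 and 78.7 in siCtrl and 9.12 and 7.82 in siRAD21 cells. It rose by a log2 value of 1.36 in siCtrl cells and fell by 1.36 in siRAD21 cells, and the difference was -2.72 (SE 0.172, adjusted p = 5.17e-07). SEMA3A, a repulsive guidance ligand (chr7:83585093-84122040), had 4.07 and 5.46 eRPKM against 2.24 and 2.49 in siRAD21 cells at 24 h, and 19.7, 19.1 and 18.5 against 1.09 and 1.30 at 48 h. Its siRAD21 libraries were below the controls at both times, and the difference was -2.67. SMOC1, a matricellular calcium-binding protein, had 0.840 and 0.874 eRPKM in siCtrl cells at 24 h and 12.7, 9.27 and 11.8 at 48 h, and stayed between 0.643 and 1.36 in siRAD21 cells (difference -2.66). CXCL14, a chemokine, did not differ between the groups at 24 h beyond their spread (7.04 and 7.32 against 7 and 7.23 eRPKM) and had 13.7, 13.4 and 16.9 against 1.25 and 0.944 at 48 h, for a difference of -3.23.

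The epithelial keratin KRT14 had the largest of these falls, -3.27, from 6.03 and 4.44 against 3.38 and 4.80 eRPKM at 24 h to 11.8, 12.5 and 12.7 against 0.728 and 0.419 at 48 h. Its groups overlapped at 24 h only. The summed level of 5 epithelial markers was 10.4 to 12.4 eRPKM in siCtrl and 11.2 to 12.7 in siRAD21 cells at 24 h, then 18.7 to 20.4 and 5.15 to 6.37 at 48 h. KRT14 alone was 11.8 to 12.7 eRPKM of the siCtrl sum at 48 h, so the sum largely restates its fall. Of the 4 tested, KRT14 and KRT5 were called lower. EPCAM and CDH1 were not called, and 1 of them had a difference above 0. ESRP1 was under 0.5 eRPKM. SLITRK6, a neuronal surface protein, had 41 and 67 reads in siCtrl and 1 read in each siRAD21 library at 24 h, a ratio of 57 (95% counting interval 15.4 to 477). The 48 h libraries held 459 to 522 reads in siCtrl cells and none in siRAD21 cells, which makes siCtrl cells at least 342-fold higher against a floor of 3 reads over the group. Its fitted difference was -3.00 and depends on the scale (-3.58 with a pseudocount of 0.1 and -4.76 with voom). HSD17B3, an enzyme of testosterone synthesis, had -2.36, ROR1, a Wnt5a receptor, -2.31 and HAS2, a hyaluronan synthase, -2.31, the exons of HAS2 sharing 251 bases with HAS2-AS1. MIR921, a microRNA gene of 56 bases, had -2.80 on 1 to 6 reads a library.

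**Figure D3:**
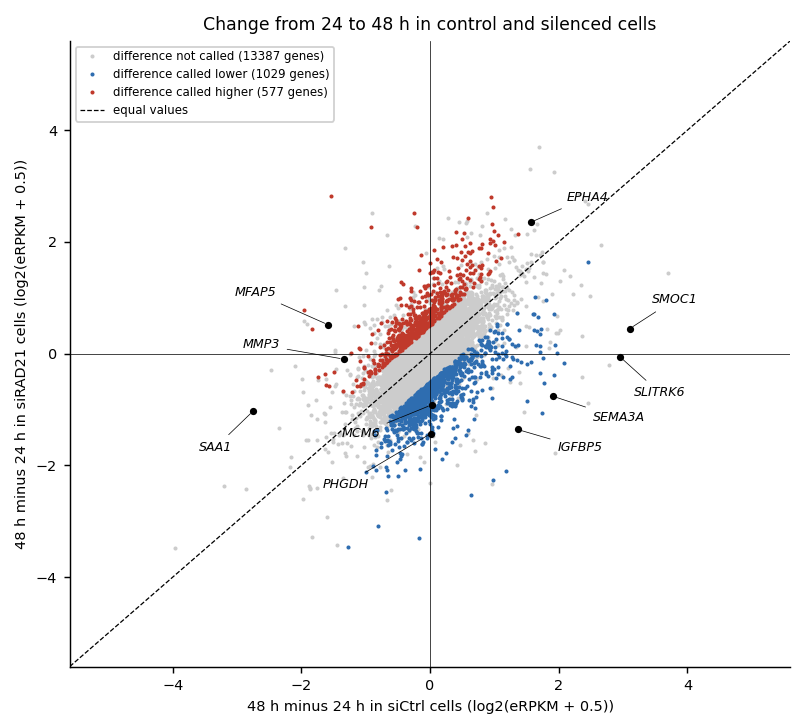
Change from 24 to 48 h in siCtrl cells on the x axis against siRAD21 cells on the y axis, on log2(eRPKM + 0.5), 1 point for each of the 14993 genes tested. Colours mark the 48 h minus 24 h difference, which is the distance from the dashed line of equal values. SMOC1, SLITRK6, SEMA3A and IGFBP5 lie to the right, having risen in siCtrl cells, while MCM6 and PHGDH lie near 0 on the x axis and below 0 on the y axis.

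The changes with time in siCtrl and in siRAD21 cells rest on separate libraries, and across genes they had a Pearson r of 0.590 and a slope of 0.759 (14993 genes). In siCtrl cells 829 genes (5.53%) were called higher with time and 1036 (6.91%) lower, and in siRAD21 cells 1264 (8.43%) higher and 2184 (14.6%) lower. Of the 829 genes that rose in siCtrl cells, 460 also rose in siRAD21 cells (36.4% of the 1264 that rose there), 342 were not called and 27 fell. Of the 1036 that fell in siCtrl cells, 617 also fell in siRAD21 cells (28.3% of 2184), 412 were not called and 7 rose. None of the 31 licensing and none of the 32 fork genes was called with time in siCtrl cells. In siRAD21 cells 25 of each list fell. Of 47 replication-dependent histone genes, 7 were called lower with time in siCtrl cells and 17 in siRAD21 cells. Of 16 deoxynucleotide synthesis genes, 2 were called lower with time in siCtrl cells and 6 in siRAD21 cells.

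Among the largest rises, MFAP5, a protein of elastic microfibrils (chr12:8789942-8815484), had 15.6 and 15.5 eRPKM in siCtrl and 30.2 and 32.3 in siRAD21 cells at 24 h. The levels at 48 h were 4.59, 4.82 and 5.15 in siCtrl and 43.1 and 46.9 in siRAD21 cells. It fell in siCtrl cells and rose in siRAD21 cells, and the difference was 2.10 (SE 0.0905, adjusted p = 2.99e-08). KLRC2, a natural killer cell receptor gene (chr12:10579453-10594899), had 3 to 16 reads in every library but those of siRAD21 cells at 48 h, which held 113 and 112 (difference 1.86). Its paralogs may share reads. CHGB, a protein of secretory granules, was 2.14 to 3.32 eRPKM in 7 libraries and 13.5 and 13.8 in siRAD21 cells at 48 h (1.78). The noncoding RNA gene LINC01164 had 1.80, SAA1, an acute phase protein, 1.72 and CARD16, a caspase-1 regulator, 1.71. Of the 10 largest rises 3 were microRNA genes of 50 to 90 bases on few reads. MIR3140 (4.36) had 0 to 8 reads a library, MIR1539 (2.46) 0 to 4 and MIR4307 (1.90) 7 to 27. MIR3140 and MIR1539 lost their calls in 2 and 5 of the leave-one-out fits.

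Of 28 interferon-stimulated genes tested, 3 were called higher and 1 lower (median 0.070), where 3.85% and 6.86% of all genes were. IFIT2 and IFIT3, which bind viral RNA, had differences of 1.83 and 1.26. IFIT3 had 5.64 and 6.16 eRPKM in siCtrl and 9.58 and 9.23 in siRAD21 cells at 24 h, and 5.46, 6.17 and 5.31 against 22.2 and 22.4 at 48 h. Its siRAD21 libraries lay above the controls at both times and rose with time. DDX58 (RIG-I, a sensor of viral RNA) had 0.56 and was not called without siCtrl 24 h replicate 2, and OAS3, which makes a second messenger of the antiviral response, had -0.77. IFIT1 (-0.29) and ISG15 (-0.34) were not called.

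Matrix, signalling and metabolic lists held few calls, and shares near the 3.85% higher and 6.86% lower of all genes are no result about a list. Of 59 extracellular matrix genes, 6 were called higher and 4 lower (median 0.10), with 10 higher without siCtrl 48 h replicate 1 and 2 lower without siRAD21 48 h replicate 1. MMP3, a matrix protease, had 1.24, LAMA1, a laminin chain, 0.85 and COL13A1, a transmembrane collagen, 0.78, while TNC had -0.67, EFEMP1 -0.56, THBS1 -0.53 and COL8A1 -0.51, the last 3 not called in every leave-one-out fit. MMP3 was 35.6 and 35.5 eRPKM in siCtrl and 30.3 and 31.0 in siRAD21 cells at 24 h, and 10.5, 16.5 and 14.9 against 28 and 29.2 at 48 h, so that it fell with time in siCtrl cells and was not called with time in siRAD21 cells. Of 16 NF-kB and cytokine genes 1 was called higher (CCL20, 0.94) and 2 lower (CCL2 and TNFAIP6, median -0.064), with 1 lower without siCtrl 24 h replicate 1, siRAD21 24 h replicate 1 or siRAD21 48 h replicate 2. TNFAIP6, which binds hyaluronan, had 3 reads in both siRAD21 libraries together at 48 h against 429 in siCtrl cells, a ratio of 98.9 (95% counting interval 33.6 to 481), and its difference of -1.30 lost its call in 3 leave-one-out fits. Of 23 TGF-beta and BMP response genes 1 was called higher and 2 lower, with a median of -0.13. The falls were those of BAMBI and SMAD6, which restrain the pathway (-1.10 and -1.07). Of 16 YAP/TAZ targets only LATS2 was called (0.52, median 0.13), and of 19 immediate early genes FOSL1 and KLF10 (0.66 and 0.52, median 0.079), LATS2 and KLF10 not in every leave-one-out fit (each was lost without siCtrl 24 h replicate 2, siCtrl 48 h replicate 3 or siRAD21 48 h replicate 2). Of 23 cholesterol synthesis genes 4 were called lower (MVK, EBP, DHCR7 and MVD, -0.80 to -0.51, median -0.060, MVD not in 4 leave-one-out fits), and of 24 hypoxia and glycolysis genes 3 (PFKFB4, ALDOC and EGLN3, -1.15 to -0.67, median -0.094), EGLN3 not in most alternatives.

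Clustered protocadherin genes, whose promoters are chosen with the help of cohesin and CTCF, had calls that depended on single libraries. Of 23 tested, 7 were called lower in the difference and none higher (median -0.30), where 6.86% and 3.85% of all genes were. With the siRAD21 24 h pair averaged 3 were called lower. Leaving out 1 library left 2 to 6, with 2 without siRAD21 24 h replicate 1 or siRAD21 48 h replicate 2, 3 without siCtrl 24 h replicate 1 or siRAD21 24 h replicate 2, and 4 without siCtrl 48 h replicate 2 or 3 or siRAD21 48 h replicate 1. The 24 h effect was called for 5 higher and 1 lower, where 5.83% and 2.60% of all genes were. The 48 h effect was called for 8 higher and 5 lower, where 12.6% and 11.2% of all genes were. PCDHGB1 had 2.59 and 2.26 eRPKM in siCtrl and 2.25 and 2.63 in siRAD21 cells at 24 h, and 3.82, 3.29 and 3.68 against 1.73 and 1.78 at 48 h (difference -0.87). Its exons share bases with other genes of the gamma cluster. Of 28 HOX genes, 7 were called lower and 2 higher (median -0.26), where 6.86% and 3.85% of all genes were. With that pair averaged 4 were called lower and 1 higher. Without siCtrl 24 h replicate 2, siRAD21 24 h replicate 1 or siRAD21 48 h replicate 2, 4 were called lower, and the higher count was 1 without any single library but siCtrl 48 h replicate 3. HOXC11 had 12.2 and 10.1 against 8.81 and 8.91 eRPKM at 24 h and 8.87, 10.2 and 11.2 against 4.59 and 4.91 at 48 h, for a difference of -0.70 that was not called without siCtrl 24 h replicate 2.

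Some early changes turned. Genes called in opposite directions at 24 h and 48 h numbered 12, all higher early and lower late, and 7 of them reached 5 eRPKM in a group. CCL2, a monocyte chemokine, had 18.2 and 15.7 eRPKM in siCtrl and 28.6 and 30.6 in siRAD21 cells at 24 h, and 43.4, 45.3 and 37.7 against 27.2 and 27.9 at 48 h. It stayed level in siRAD21 cells while siCtrl cells rose past it, and the difference was -1.39. HAS2 had 1.42 and 1.59 against 2.38 and 2.64 eRPKM at 24 h, and 7.02, 7.84 and 6.65 against 1.68 and 1.95 at 48 h. CCL24 (-2.02), KRT5 (-1.70), RNF43 (-1.51) and RTN4R (-1.26) had the same order. Of the genes called at 24 h, 85 had a called difference in the opposite direction (71 higher and 14 lower at 24 h) and 257 in the same direction. The difference subtracts the 24 h effect, so noise in the 24 h libraries favours opposite signs. These counts, and the genes chosen by them, are a description. The largest early rises that shrank, beside the histone genes above and CCL24, were those of WNT6 (effect 1.65 at 24 h and 0.95 at 48 h) and C11orf96 (1.34 and 0.32). Of the 390 genes called lower at 24 h, 76 were not called at 48 h. Among genes called lower at 24 h with a called difference in the opposite direction, the largest early falls included those of TMEM150A (-0.82 and 0.11), EPHA4 (-0.77 and 0.017), NUFIP1 (-0.71 and -0.18) and BACH2 (-0.65 and -0.010). EPHA4, an ephrin receptor, rose from 4.43 and 4.95 to 14.8, 14 and 15.7 eRPKM in siCtrl cells and from 2.45 and 2.64 to 16 and 14 in siRAD21 cells, which met the controls at 48 h. WNT6, C11orf96, NUFIP1 and BACH2 lost their calls in some leave-one-out fits.

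**Figure D4:**
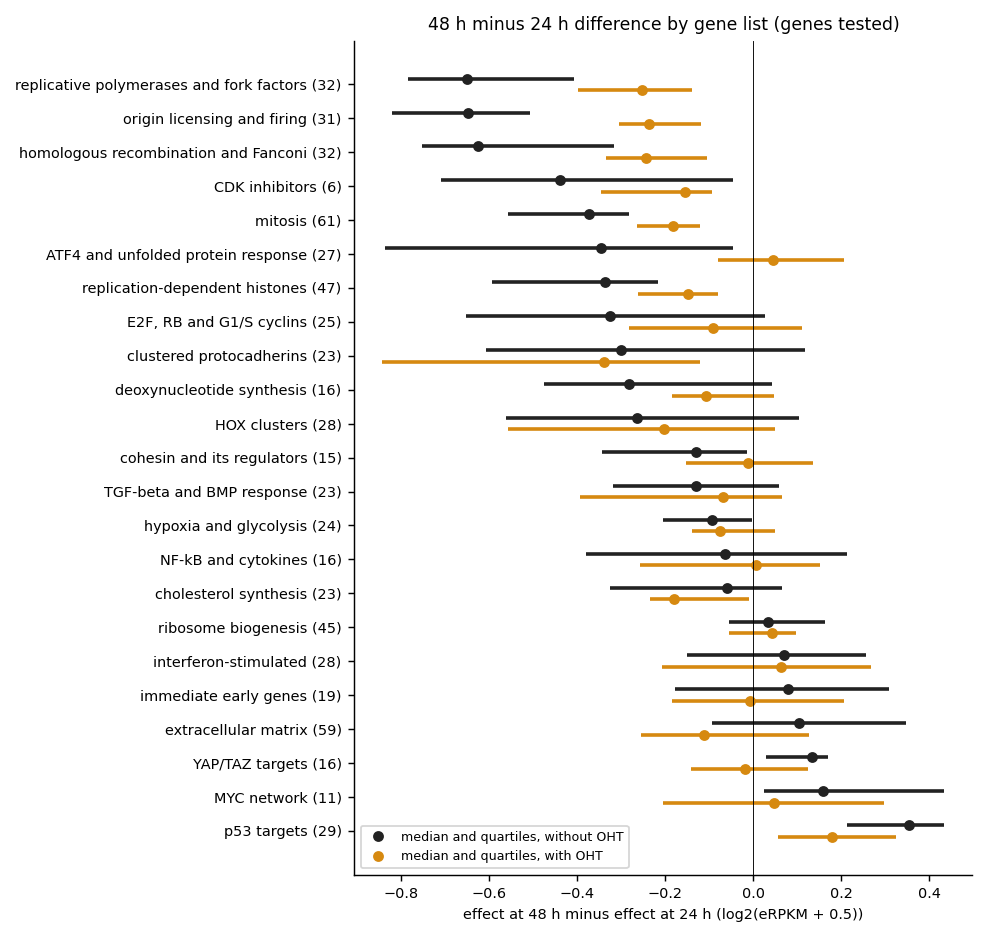
Median (point) and quartiles (line) of the 48 h minus 24 h difference for 23 gene lists, on log2(eRPKM + 0.5), without OHT in black and with OHT in orange, with the number of genes tested in parentheses. The replication, polymerase and recombination lists are lowest without OHT, at medians of -0.65 to -0.62, and the p53 targets highest, at 0.35.

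With MycER active, the replication lists had medians closer to 0, and this was not particular to them. The mitosis list had medians of -0.37 without and -0.18 with OHT, and the p53 targets 0.35 and 0.18. Among the lists that moved the other way were the protocadherins (-0.30 and -0.34) and cholesterol synthesis (-0.06 and -0.18). In the 9 OHT libraries 408 genes (2.72%) were called higher and 560 (3.74%) lower. The reads of the siRAD21 OHT 48 h and the siCtrl OHT 24 h pairs also differed by no more than sampling noise (chi-square of 0.98 and 1.02 per degree of freedom), and with these and the siRAD21 24 h pair averaged 270 genes were called in place of 968. The differences without and with OHT rest on separate libraries, and across genes they had a Pearson r of 0.487 and a slope of 0.437. Of the 1029 genes called lower without OHT, 305 (29.6%) were called lower with OHT, which is 54.5% of the 560. Of the 577 called higher, 221 (38.3%) were called higher with OHT, 54.2% of the 408. RAD21 itself had -0.93 with OHT (SE 0.069, adjusted p = 3.08e-06), and its value with OHT minus that without was 0.15 and was not called (adjusted p = 0.618).

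The difference between the 2 conditions was tested directly as the value with OHT minus the value without. It was called for 98 higher (0.654%) and 27 lower genes (0.180%). Of the 31 licensing genes 8 were called higher in this test, 4 of the 32 fork genes, 4 of the 32 recombination genes, 3 of the 25 E2F and G1/S genes, 1 of the 61 mitosis genes and 9 of the 27 ATF4 genes. None of these lists had a member called lower. With OHT the licensing, fork and recombination lists had medians of -0.24, -0.25 and -0.24 and the ATF4 list 0.045. Averaging the siRAD21 OHT 48 h pair left 45 genes, among them 5 licensing, 3 fork, 1 recombination, 1 E2F and G1/S, no mitosis and 5 ATF4 genes. Averaging all 3 pairs left 13, with 3 ATF4 genes and none of the other 5 lists. Centring on the median left 4 licensing, 2 fork, 2 recombination, 1 E2F and G1/S, no mitosis and 5 ATF4 genes. Leaving out 1 library left 4 to 10 licensing, 2 to 5 fork, 1 to 5 recombination and 5 to 9 ATF4 genes, and 51 to 155 genes in all, with the lowest counts without siRAD21 OHT 48 h replicate 1 (51), siRAD21 24 h replicate 2 (52) and siRAD21 48 h replicate 1 (53). MCM6 had 31.9 and 30.7 eRPKM in siCtrl OHT and 36 and 37.4 in siRAD21 OHT cells at 24 h, and 33.3, 34.1 and 33.5 against 34.1 and 34 at 48 h. The libraries of siRAD21 OHT cells were above every control at 24 h and lay among the highest controls at 48 h, and the value with OHT minus that without was 0.73 (SE 0.0864, adjusted p = 0.000858). PHGDH had 27.8, 30.4 and 30.9 eRPKM in siCtrl OHT and 20.8 and 21.4 in siRAD21 OHT cells at 48 h, still below the controls, and the test gave 0.91 (SE 0.124, adjusted p = 0.00403).

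Other genes were also called with OHT. IGFBP5 had -3.24 with OHT, from 8.68 and 7.27 against 6.85 and 6.40 eRPKM at 24 h to 16.2, 12.1 and 14.4 against 0.747 and 0.865 at 48 h. Its levels in siCtrl OHT cells were below those in siCtrl cells at both times. MFAP5 had 1.70, KLRC2 1.86, IFIT2 2.69 and SEMA3A -2.24, all called. Of the protocadherin genes 7 of 23 and of the HOX genes 6 of 28 were called lower with OHT, where 3.74% of all genes were. In the p53 list 2 of 29 genes were called higher with OHT (median 0.18), where 2.72% of all genes were. GDF15 had -0.11 with OHT, its siCtrl OHT libraries having 6.10 and 7.62 eRPKM at 24 h and 16.4, 16 and 12.1 at 48 h.

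**Figure D5:**
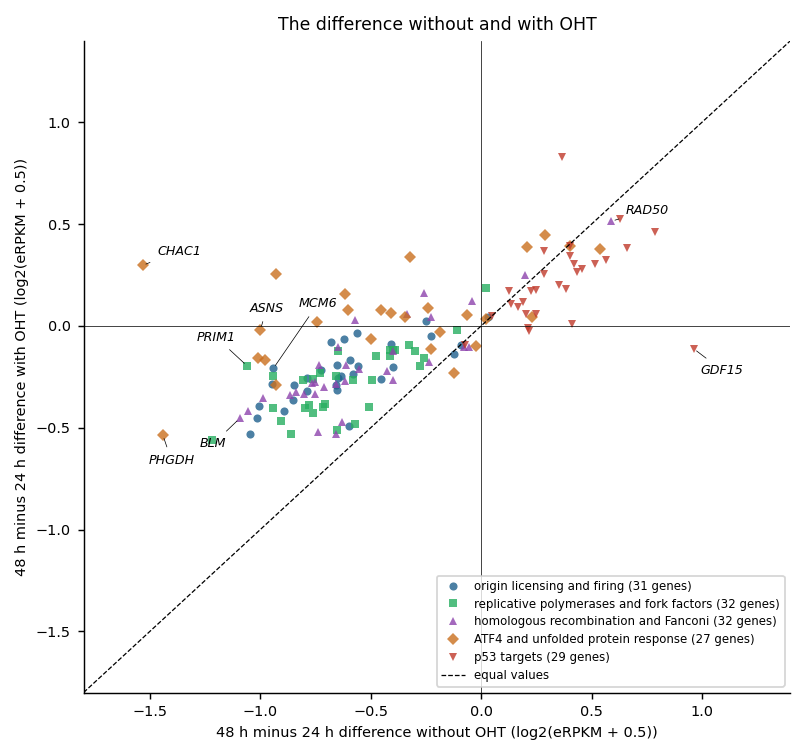
The 48 h minus 24 h difference without OHT on the x axis against the same difference in the OHT libraries on the y axis, on log2(eRPKM + 0.5), for the genes of 5 lists. Most licensing, fork and recombination genes lie above the dashed line of equal values at negative x, CHAC1 and ASNS lie near or above 0 on the y axis, and RAD50 lies near the line.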

How the data were processed

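RNA was measured in 18 libraries of U2OS-MycER cells, and all 18 were assigned to 8 groups from their labels. Per the labels and methods, the authors removed ribosomal RNA, prepared libraries with a TruSeq kit, aligned reads to hg19 with TopHat2 2.0.8, removed PCR duplicates, counted with featureCounts 1.4.5 and deposited eRPKM values (RPKM over exons). The authors used DESeq2 for their own tests. All columns were mapped to samples.

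Tests used limma 3.58.1 in R 4.3.3 on log2(eRPKM + 0.5) of genes with a mean of at least 1 eRPKM, with a mean for each group over all 18 libraries, a variance trend and no block, and Benjamini-Hochberg adjustment per comparison. Fold changes are on this scale, which understates those of low genes. A call needed an adjusted p below 0.05 and a log2 value past 0.5. Whole reads were recovered from the eRPKM values and exon lengths for 20530 genes, including all 14993 tested (within 0.01 of a read), which gave the depths. The limma procedure was tested on simulated data. Of the genes tested, 5092 exceeded 15% and 227 exceeded 50% of the level that duplicate removal allows.

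The comparison, its 23 gene lists, 4 marker lists and tests were chosen with earlier results of these data known. Named genes were RAD21, MYC and MCM2 to MCM7, the 10 largest rises and falls with at least 5 eRPKM in 1 group and a sign held in each leave-one-out fit, up to 4 called rises and falls per list (the largest value where none was called), and up to 5 each way called in opposite directions at both times or called at 24 h and oppositely in the difference. Other genes of a list are named to show which of its members were or were not called, after their values were seen. Gene positions are from GENCODE on GRCh37, and promoters from RefSeq, which matched 75.1% of the genes tested, so motif shares are given only for lists with at least 80% matched. Alternatives were pseudocounts of 1 and 0.1, other filters, centring, quantile normalization, only the groups compared, replicate blocks, no trend, robust fits, leaving out each library and averaging the siRAD21 OHT 48 h pair. A block within each time, averaged pairs within sampling noise, undone duplicate removal and voom applied to recovered reads were added once the data had been seen. Intervals cover counting error only. Some genes of these lists are not reported here.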

Additional observations from a re-analysis of the deposited data

Results flagged for a closer look

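For 125 genes the 48 h minus 24 h difference itself differed between OHT and no OHT, by a direct test of the value with OHT minus that without (limma with Benjamini-Hochberg adjustment). Of these, 98 were higher and 27 lower. The genes named were chosen by the difference without OHT, which this test subtracts, so their signs follow partly from that choice. The values were 0.54 for MCM2, 0.51 for MCM4, 0.73 for MCM6, 0.56 for GINS1, 0.61 for MCM10 and 0.66 for ORC1 in licensing, and 0.87 for PRIM1, 0.70 for POLA1 and 0.54 for CHAF1A at the fork. CCNE2 had 0.94, E2F1 0.61, CENPM 0.61, BLM 0.64 and EXO1 0.63. In the ATF4 list CHAC1 had 1.83, PHGDH 0.91, PSAT1 0.85 and ASNS 0.98. Beyond these lists CXCL14 had 2.98, ROR1 1.60, HAS2 1.30 and BAMBI 1.12. CXCL14 had 22.7 and 25 eRPKM in siRAD21 OHT cells at 24 h and 16.9 and 17 at 48 h, where siCtrl OHT cells had 13.9, 14.9 and 17.3. With the siRAD21 OHT 48 h pair averaged, HAS2, GINS1, PRIM1, CCNE2, E2F1, CENPM, BLM, BAMBI and PSAT1 were no longer called. CXCL14, CHAC1 and ASNS were called in all 33 alternatives run for them.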

How the results depend on the processing

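The 1606 calls of the 48 h minus 24 h difference became 1078 to 1842 under other processing, 1313 to 1645 without each library in turn, 1296 with the siRAD21 24 h pair averaged and 3236 with no fold threshold. Quantile normalization gave 41.1% higher calls against 35.9%. Without each library the 24 h effect had 1105 to 1311 calls, the 48 h effect 3380 to 3713, the time change in siCtrl 1613 to 2049, the time change in siRAD21 3156 to 3436 and the difference with OHT 666 to 942. Testing only genes with a mean of at least 5 eRPKM gave 740, 2289, 1152 and 600 calls for the 24 h effect, the 48 h effect, the time change in siCtrl and the difference with OHT, from fewer genes tested. The difference with OHT had 270 calls with all 3 pairs averaged. OHT minus no OHT had 72 calls when centred, 243 with quantile normalization, 195 with voom, 45 with either siRAD21 pair averaged, 13 with all 3 pairs averaged and 51 to 155 without each library. It fell to 51 to 77 without any 1 of the siRAD21 24 h, siCtrl OHT 24 h, siRAD21 OHT 24 h or siRAD21 OHT 48 h libraries or siRAD21 48 h replicate 1. The cause was not tested.

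Of the 119 named genes with a called difference, 85 kept the call in all 25 alternatives and 34 lost it in at least 1, and no sign reversed. List medians of the difference, markers included, were also taken under each alternative. They stayed within the pooled SD of the list mean among replicates in 531 checks and moved by more in 94. Replicate numbers did not pair the samples over all 4 groups: deviations of like-numbered samples correlated at 0.284 at 24 h and at 0.159 and 0.229 at 48 h, but at -0.146 to 0.071 across times. With a replicate block the difference had 1574 calls, and 1581 with a block within each time. The block moved no other count of calls by over 1.5 times. Depth limits the low genes, and the removal of duplicates the high ones.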
